A study of Mus musculus with 33 samples.

Results

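Heart muscle cells burn fatty acids as their main fuel after birth, and the genes that carry fat from the blood into the mitochondrial matrix were followed here in single mouse heart cells from before and after birth. The set was a fixed list of 38 gene symbols of fatty acid oxidation and ketone metabolism, matched to the gene symbols of the deposited count table. Of these, 37 had a row among the 14862 gene rows, and Cpt1b, the muscle form of carnitine palmitoyltransferase 1, is not analysed here. The 37 genes were ordered by step: 4 of uptake, 5 of activation, 5 of the carnitine shuttle, 17 of beta oxidation, 3 of ketone metabolism and 3 of fuel switch and uncoupling.

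Fatty acids enter heart cells through carriers such as CD36, are bound in the cytosol by fatty acid binding protein, and are trapped as acyl-CoA by long-chain acyl-CoA synthetases. The carnitine shuttle moves the acyl group into mitochondria, where dehydrogenases, hydratases and thiolases shorten it in repeated cycles and pass electrons to the respiratory chain through the electron transfer flavoprotein. Ketone bodies made by the liver are oxidised in the heart by enzymes that return them to acetyl-CoA. The fetal heart is known to rely largely on glucose and lactate, and the suckling heart on the fat of milk.

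The cells were freshly isolated from the ventricles of mice carrying mAG-hGem, the Azami Green geminin reporter of the FUCCI system, which marks cells from S phase to mitosis, and were sorted by its fluorescence. All groups carried the reporter, and the labels used here gave no strain, no promoter for the reporter and no treatment. The 21 cells of embryonic day 14.5 (E14.5) were 10 mAG-hGem positive and 11 mAG-hGem negative cells, and the 12 cells of postnatal day 5 (P5) were 6 positive and 6 negative cells. The P5 cardiomyocytes were the 5 positive cells titled L1P5, L2P3, L2P7, L2P8 and L2P10. The remaining 7 P5 cells were the positive cell L2P12 and the 6 negative cells, which were set apart because cardiomyocyte genes were low in them. Each sample was 1 cell and no animal was named, so every set of cells counted as 1 sample, no test between sets was possible, and no difference had a replicate check.

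All 33 cells were labelled as cardiomyocytes, after a PCR screen for Tnnt2 and against Pdgfrb. In the 26 cells of the P5 cardiomyocyte and E14.5 sets, 11 cardiomyocyte markers summed to between 15739 and 119233 counts scaled to a total of 1000000 per cell (CPM). The same sum was 0.553 to 3293 CPM in the other P5 cells, where endothelial markers summed to 298 to 13051 CPM. Red blood cell markers summed to 2850 CPM in L1N3 and 2939 CPM in L2N10 and to at most 6.72 CPM in the remaining other P5 cells. Markers of fibroblasts and mural cells came to 19501 CPM in L2N12 and to 46798 CPM in N10, an E14.5 cell that stood apart by them. Totals ran from 2545036 to 38465225 counts per cell, and L1P5 was the shallowest. L2N4 had counts in the fewest genes, 2994, followed by L1N3 with 3747 and L1P5 with 3991. The single adipocyte marker in the table was at or below 0.297 CPM in every cell. E14.5 and P5 cells carried different title prefixes and the labels named no batch, so age and batch cannot be told apart.

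The first comparison asked how the genes differ between P5 cardiomyocytes and the 21 E14.5 cells. The summed CPM of all 37 genes was 26282.5 in L1P5, 27166 in L2P3, 27979 in L2P7, 18539 in L2P8 and 38758 in L2P10. In E14.5 cells it ran from 4786 in N10 through a median of 10662 to 17271 in N7, so each P5 cardiomyocyte lay above each E14.5 cell. Without Fabp3 the sums were 14672 to 23513 CPM in P5 cardiomyocytes and 4240 to 16679 CPM in E14.5 cells, and the ranges overlapped when cells were scaled by total counts. Without Etfb they overlapped as well, with 17149 CPM in L2P8 and 17194 CPM in N7, and leaving out any 1 of the other 35 genes kept them apart. Other ways of scaling the cells were not applied to these sums, so whether the overlaps hold under them was not tested.

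Gene by gene, values are log2 ratios of the CPM of counts summed over the cells of a set. A gene was called higher or lower when the sets differed by at least 2-fold, among genes whose CPM averaged at least 10 over both sets. That level was reached by 32 of the 37 genes. Of these 32, 17 were higher and 2 lower in P5 cardiomyocytes, and 13 were neither. Over all 6742 genes at that level, 24.1% were higher and 40.5% lower. The median log2 ratio was 1.02 over the 32 genes and -0.52 over all genes. In 4 of the 32 genes, Fabp3, Crat, Acadvl and Etfb, each of the 5 P5 cells lay above each of the 21 E14.5 cells, while 0.742% of all genes did so. For Crat this did not hold with edgeR TMM or DESeq2 size factors, where N28 lay above L2P3. None of the 32 had each P5 cell below each E14.5 cell, against 0.356% of all genes. DESeq2 size factors in place of total counts moved the median of all genes to 0.03 and that of the 32 genes to 1.51, with 22 genes higher and 2 lower, beside 32.6% higher and 30.03% lower of all genes.

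**Figure D1:**
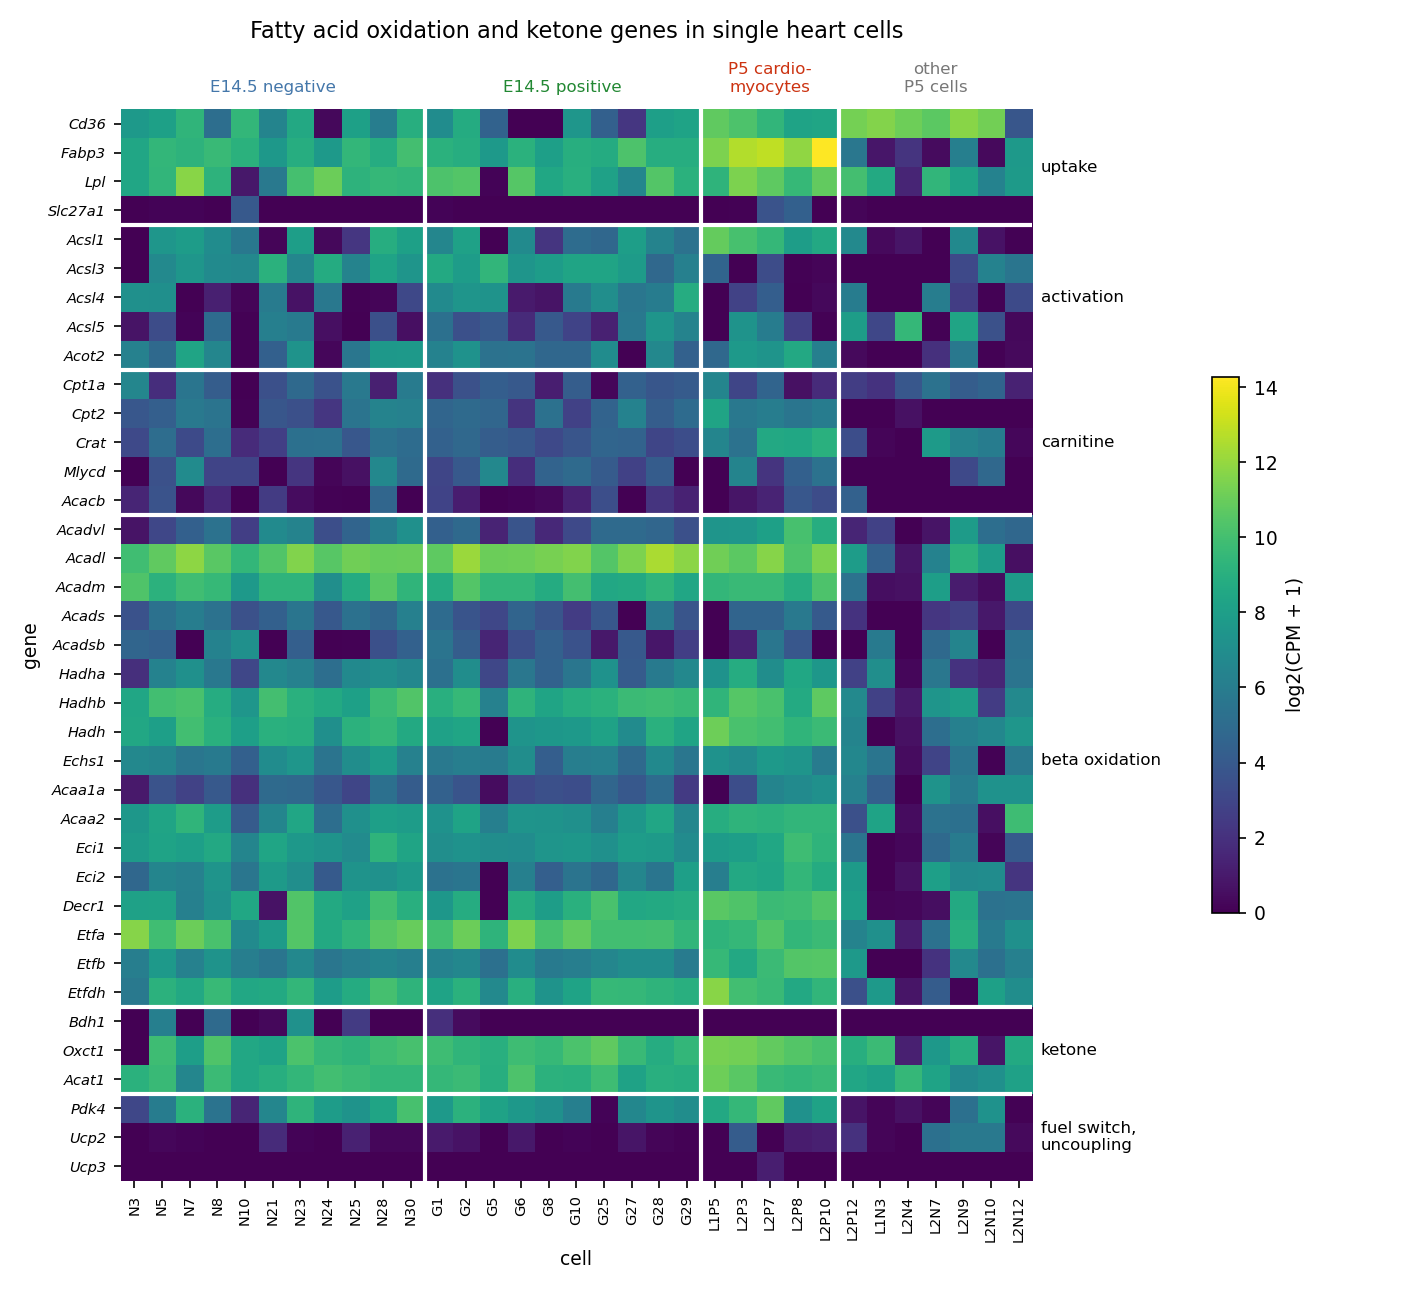
Expression of the 37 genes (rows, grouped by step) in the 33 single cells (columns, grouped by set), as log2(CPM + 1) in colour. The Fabp3 row is brightest in the 5 P5 cardiomyocytes, the Acsl3 row fades in them, and the Cpt2 row is near 0 in the other P5 cells.

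**Figure D2:**
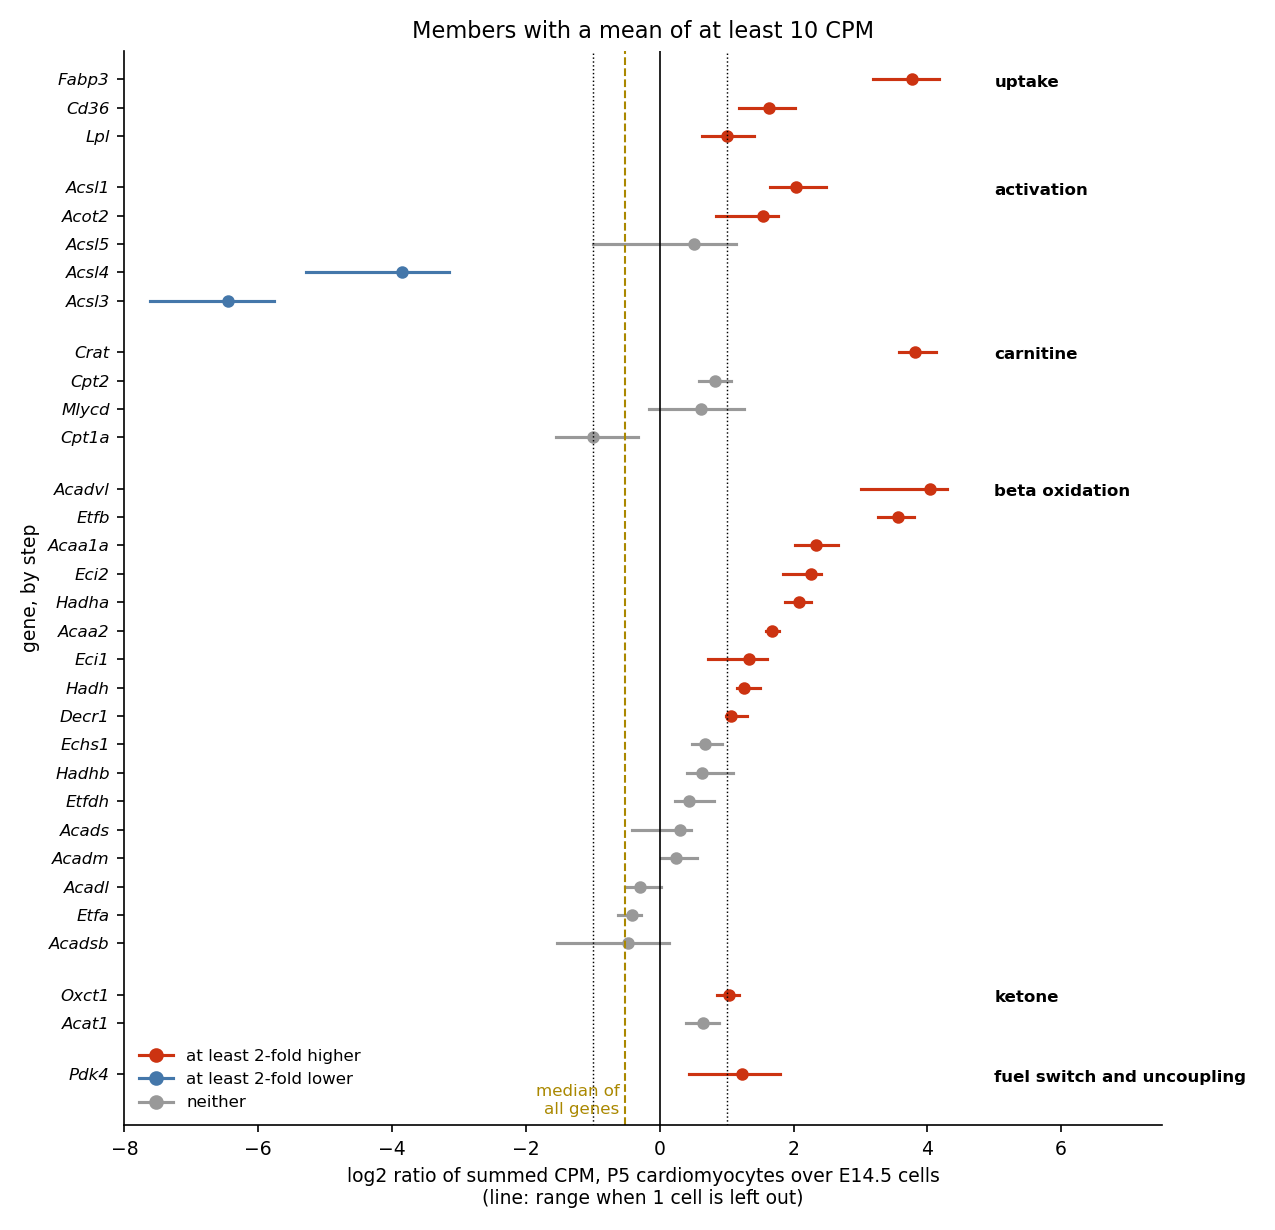
Log2 ratio of summed CPM, P5 cardiomyocytes over E14.5 cells, for the 32 genes with a mean of at least 10 CPM, grouped by step. Points are the ratio over all cells, lines the range when 1 cell is left out, dotted lines the 2-fold limits and the dashed line the median of all genes at -0.52. Points of 17 genes lie right of the upper limit and those of Acsl3 and Acsl4 lie left of the lower limit.

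Of the uptake genes, 3 of 3 at the level for a call were higher at P5, beside 24.1% of all genes. No E14.5 cell reached the lowest P5 level of Fabp3. Fabp3, the heart form of fatty acid binding protein, was at 2769 CPM in L1P5, 6235 in L2P3, 7576 in L2P7, 3867 in L2P8 and 19722 in L2P10. E14.5 cells held 192 to 1229 CPM of Fabp3, with a median of 477. The summed level of Fabp3 was 7875 CPM at P5 and 576 CPM at E14.5, a log2 ratio of 3.77, and without L2P10 the ratio was 3.19. Fabp3 made up 10.5 to 50.9% of the counts of the 37 genes in the 5 P5 cardiomyocytes and 2.37 to 12.05% in the E14.5 cells. The ranges of these shares overlapped.

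Cd36, the fatty acid translocase of the cell surface, was at 1763 CPM in L1P5, 1230 in L2P3, 671 in L2P7, 310.1 in L2P8 and 338 in L2P10. E14.5 cells ranged from 0 to 707 CPM of Cd36 with a median of 179, and the highest was N10. Cd36 had a log2 ratio of 1.63, and 15 of the 21 E14.5 cells lay below each P5 cardiomyocyte. Lpl, the lipase that frees fatty acids from circulating triglyceride, was at 624, 2834, 1679, 763 and 1802 CPM in the 5 P5 cells in the same order. Its E14.5 range of 0.104 to 3409 CPM, with a median of 604, enclosed all 5. Lpl had a log2 ratio of 1.01, just inside the 2-fold limit. It was between 0.64 (without L2P3) and 1.00 when L2P3, L2P7, L2P10, G5, G8, G10, G25, G27, G29, N3, N8, N10, N21, N25, N28 or N30 was left out. Slc27a1, a fatty acid transport protein, did not reach the level for a call, at 9.49 CPM at P5 and 0.795 CPM at E14.5. Its P5 counts came from L2P7 (11.3 CPM) and L2P8 (19.4 CPM), and N10 held 98.9% of the E14.5 counts of Slc27a1.

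The 250 bases upstream of the Fabp3 start are shown because this gene set P5 cardiomyocytes apart. They lie on the plus strand of GRCm38.p6 at chr4:130308488-130308737, credited to RefSeq, and run 5′ to 3′ up to the annotated start. Capitals, where present, mark the letters AGGTCA, the half-site of nuclear receptors such as the PPAR and ERR families, on either strand. Fabp3 held none in this window.
Fabp3: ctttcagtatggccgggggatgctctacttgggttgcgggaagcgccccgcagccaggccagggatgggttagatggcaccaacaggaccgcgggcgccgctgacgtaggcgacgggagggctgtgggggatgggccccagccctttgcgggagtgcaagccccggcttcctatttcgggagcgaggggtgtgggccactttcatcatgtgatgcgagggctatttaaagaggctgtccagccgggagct

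Activation genes went in opposite directions, and the acyl-CoA synthetase counts passed from several genes to mostly Acsl1. Acsl1, the synthetase of adult heart and fat, was at 1914 CPM in L1P5, 1118 in L2P3, 722 in L2P7, 241 in L2P8 and 390.1 in L2P10. E14.5 cells ran from 0 to 473 CPM of Acsl1 with a median of 83.0. The log2 ratio of Acsl1 was 2.03, and P5 and E14.5 cells overlapped only between 241 and 473 CPM. Acsl3, a synthetase tied to the endoplasmic reticulum and lipid droplets, was at 23.2 CPM in L1P5, 0 in L2P3, 8.86 in L2P7, 0.0748 in L2P8 and 0.159 in L2P10. Of the 21 E14.5 cells, 20 had at least 10 CPM of Acsl3, with a median of 177 and a highest value of 683 in G5, while N3 was at 0. The summed Acsl3 level fell from 219 CPM to 2.499 CPM, a log2 ratio of -6.45, which was -7.62 without L2P7 and -5.77 without L2P8.

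Acsl4, a synthetase with a preference for arachidonic acid, was at 0, 6.17, 18.04, 0.0374 and 0.239 CPM in L1P5, L2P3, L2P7, L2P8 and L2P10. Its E14.5 cells ran from 0 to 450.4 CPM (G29) with a median of 50.9, and the 2 ranges overlapped. Acsl4 had a log2 ratio of -3.85, with -5.28 without L2P7, -3.15 without L2P8 and -3.22 without G29. Acsl5 was at 48.5 CPM at P5 and 34.1 CPM at E14.5, and its log2 ratio of 0.51 was -0.996 without L2P3, the cell with 72.5% of its P5 counts. Without L2P8 it was 1.15, which would pass the limit, as it would without G28.

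Among the shares of the 4 Acsl genes in their summed counts, that of Acsl1 did not overlap between P5 cardiomyocytes and E14.5 cells, and those of Acsl3, Acsl4 and Acsl5 did. Gene length does not cancel in such shares, so they are shares of counts and not of molecules. Acsl1 held 98.8% of the Acsl counts in L1P5, 87.0% in L2P3, 88.9% in L2P7, 97.8% in L2P8 and 99.9% in L2P10. In E14.5 cells its share ran from 0 to 62.7% with a median of 24.1%. In summed counts the Acsl1 share was 91.6% at P5 (exact binomial interval 91.4 to 91.9%) and 31.7% at E14.5 (31.5 to 31.9%). The Acsl3 share was 0.377% at P5 (0.323 to 0.437%) and 46.7% at E14.5 (46.5 to 47.0%). These intervals, and all intervals here, cover counting error only, since amplified reads are not independent molecules.

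**Figure D3:**
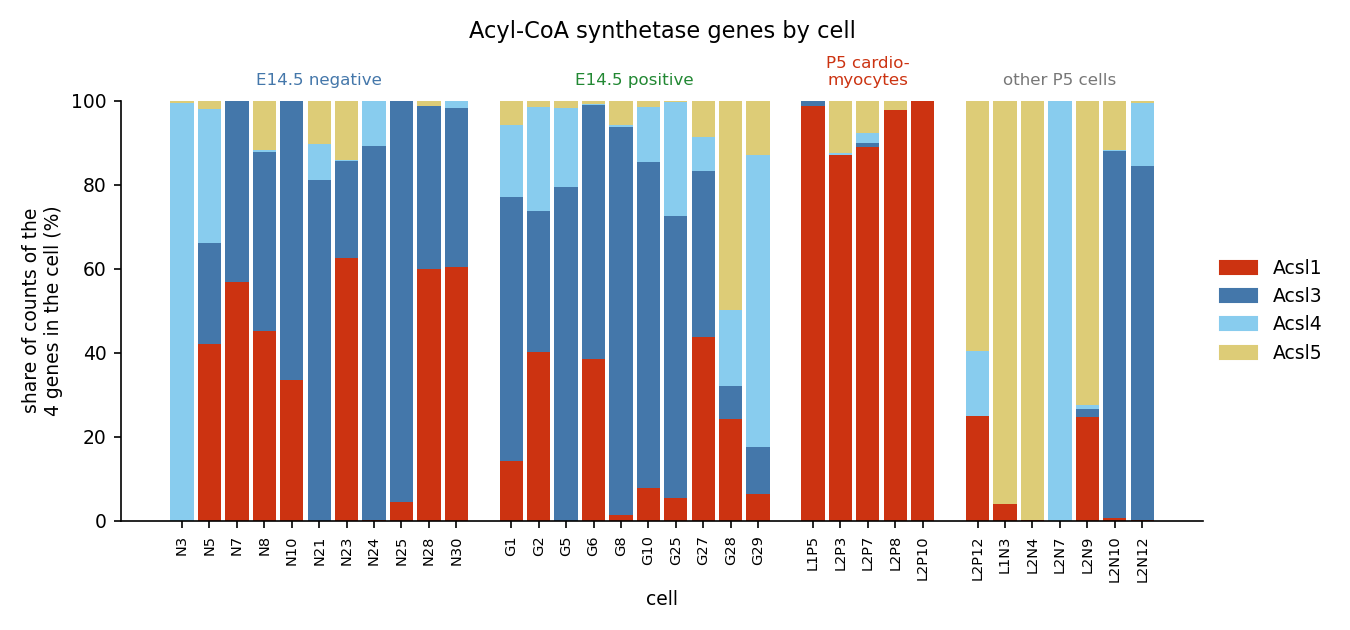
Shares (%) of the counts of Acsl1, Acsl3, Acsl4 and Acsl5 in each of the 33 cells, grouped by set. Acsl1 fills at least 87.0% of the bar in the 5 P5 cardiomyocytes and at most 62.7% in the E14.5 cells, whereas Acsl5, Acsl4 or Acsl3 fills most of the bar in the other P5 cells.

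Acot2, a mitochondrial thioesterase that releases fatty acid from acyl-CoA, closed the activation step. It was at 27.1 CPM in L1P5, 213 in L2P3, 168 in L2P7, 386 in L2P8 and 70.5 in L2P10, against 0.026 to 327 CPM with a median of 48.0 in E14.5 cells. Acot2 had a log2 ratio of 1.54 and dropped to 0.84, below the limit, without L2P8. Acot2 has a near-identical cytosolic copy, Acot1, and how reads shared between them were counted is not stated, so its value is uncertain.

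In the carnitine shuttle 1 of 4 genes at the level for a call was higher, a share of 25% beside 24.1% of all genes, and none was lower. Crat, carnitine acetyltransferase, which buffers acetyl-CoA as acetylcarnitine, was at 89.98 CPM in L1P5, 41.2 in L2P3, 383 in L2P7, 357 in L2P8 and 535 in L2P10. E14.5 cells ran from 2.35 to 41.1 CPM of Crat with a median of 17.2, so the ranges touched but did not overlap. With edgeR TMM or DESeq2 size factors N28, the highest E14.5 cell by CPM, lay above L2P3 and the ranges overlapped. The log2 ratio of Crat was 3.82 and stayed between 3.58 and 4.14 when any 1 cell was left out. Cpt2, the inner-membrane carnitine palmitoyltransferase, was at 326 CPM in L1P5, 51.7 in L2P3, 66.1 in L2P7, 45.5 in L2P8 and 62.1 in L2P10. E14.5 cells held 0.0534 to 81.9 CPM of Cpt2 with a median of 24.1, and 17 of the 21 lay below each P5 cardiomyocyte. The log2 ratio of Cpt2, 0.83, missed the limit but would pass it without L2P8, G27 or N28.

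Cpt1a, the liver-type enzyme of the outer membrane that commits acyl-CoA to the shuttle, was at 88.4, 6.76, 23.3, 0.561 and 2.39 CPM in L1P5, L2P3, L2P7, L2P8 and L2P10. In E14.5 cells it ran from 0 to 91.5 CPM with a median of 14.9. Cpt1a had a log2 ratio of -0.997, just short of a call, and it was -0.33 without L2P8. Leaving out any of 16 cells, among them L2P7 (-1.54), would make it a call. Its partner isoform in heart, Cpt1b, is not analysed here. Mlycd, which degrades malonyl-CoA, the inhibitor of the shuttle, was at 0, 85.1, 3.35, 20.2 and 41.2 CPM in the 5 P5 cells and at 0 to 116 CPM with a median of 6.77 at E14.5. Mlycd had a log2 ratio of 0.62, with -0.15 without L2P3 and 1.27, past the limit, without N28. Acacb, the acetyl-CoA carboxylase that makes malonyl-CoA at mitochondria, stayed below the level for a call at 7.27 CPM at P5 and 4.10 CPM at E14.5.

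In beta oxidation 9 of 17 genes (52.9%) were higher at P5 and none was lower, beside 24.1% higher and 40.5% lower of all genes. Acadvl, the very long-chain acyl-CoA dehydrogenase of the inner membrane, was at 175 CPM in L1P5, 183 in L2P3, 274 in L2P7, 1101 in L2P8 and 478 in L2P10. E14.5 cells ran from 0.668 to 141 CPM of Acadvl with a median of 20.1. Acadvl had a log2 ratio of 4.04, the highest of the 32 genes, and 3.01 without L2P8, the cell with 69.9% of its P5 counts. The other acyl-CoA dehydrogenases were not called. Acadl, the long-chain enzyme, was at 2273, 1649, 3292, 1232 and 2805 CPM in the 5 P5 cells and at 694 to 5543 CPM with a median of 2133 at E14.5, so the P5 values lay inside the E14.5 range. Its log2 ratio was -0.30 with total counts and 0.19 with DESeq2 size factors.

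Acadm, the medium-chain dehydrogenase, had a log2 ratio of 0.24, from 646 CPM at E14.5 to 762 CPM at P5. Acads, the short-chain enzyme, was at 26.3 CPM at E14.5 and 32.5 CPM at P5, a log2 ratio of 0.31 that turned to -0.42 without L2P8. Acadsb, which acts on short branched chains, had a log2 ratio of -0.47, with -1.53, past the limit, without L2P7, 0.14 without N10 and 0.02 with DESeq2 size factors. Acadl took 10.5 to 38.4% of the counts of all 37 genes in E14.5 cells and 6.07 to 11.8% in the 5 P5 cells.

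The electron transfer flavoprotein pairs the products of Etfa and Etfb in equal numbers, and its genes changed unequally. Etfb, the beta subunit, was at 739 CPM in L1P5, 395 in L2P3, 848 in L2P7, 1389.7 in L2P8 and 1448 in L2P10, above the E14.5 range of 37.5 to 208 CPM with a median of 76.8. The log2 ratio of Etfb was 3.57, between 3.26 and 3.80 when any 1 cell was left out. Etfa, the alpha subunit, was at 622, 711, 1345, 709.8 and 854 CPM in the same cells and at 111 to 3319 CPM with a median of 1009 at E14.5. Its log2 ratio was -0.42 with total counts and 0.07 with DESeq2 size factors.

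Within single cells the ratio of Etfb counts to Etfa counts was 1.19 in L1P5, 0.556 in L2P3, 0.631 in L2P7, 1.96 in L2P8 and 1.69 in L2P10. In the 21 E14.5 cells it ran from 0.0203 to 0.599 with a median of 0.0817. The highest E14.5 ratio was that of N10, the cell with fibroblast and mural markers, and the next was 0.216 in N5. Apart from N10, each E14.5 cell therefore lay below each P5 cardiomyocyte. In the other P5 cells the ratio ran from 0 to 2.61 with a median of 0.211. L2P12, at 2.61, lay above each P5 cardiomyocyte, and L2N10, at 0.684, lay above L2P3 and L2P7. A ratio within a cell does not depend on how cells are scaled. This pair and the pair of Hadha and Hadhb were chosen after their values were seen. Etfdh, the oxidoreductase that takes the electrons onward to ubiquinone, had a log2 ratio of 0.44, from 562 to 761 CPM.

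Hadha and Hadhb encode the alpha and beta subunits of the mitochondrial trifunctional protein, which carries out the last steps of the cycle for long chains. Their RefSeq start sites on chromosome 5 lie 273 bases apart on opposite strands, so the genes are read away from each other. Hadha was at 156 CPM in L1P5, 447 in L2P3, 129 in L2P7, 362 in L2P8 and 189.5 in L2P10, against 2.84 to 153 CPM with a median of 57.5 at E14.5. Hadhb was at 646, 1461, 1174, 423 and 1703 CPM in the same cells and at 77.2 to 1347 CPM with a median of 545 at E14.5. The log2 ratio was 2.09 for Hadha, which was called, and 0.64 for Hadhb, which was not. Without L2P8 the ratio of Hadhb was 1.09, past the limit. In Hadha, 4 of the 5 P5 cells lay above each E14.5 cell, and L2P7 did not. In single cells the ratio of Hadha counts to Hadhb counts was 0.110 to 0.855 at P5 with a median of 0.241, and 0.0081 to 0.405 at E14.5 with a median of 0.0941, so the ranges overlapped.

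Upstream bases of Acadvl, Etfb and Hadhb are shown because the first pair did not overlap between ages and the third is the stretch shared with Hadha. The windows end at the annotated start, are written 5′ to 3′ on the gene's strand, and lie in GRCm38.p6 at chr11:70015429-70015678 (minus strand), chr7:43443822-43444071 (plus) and chr5:30155003-30155252 (plus). The last window lies wholly between the start sites of Hadha and Hadhb. Capitals mark AGGTCA on either strand, which occurred in Acadvl at position -87 from the start and in neither of the others.
Acadvl: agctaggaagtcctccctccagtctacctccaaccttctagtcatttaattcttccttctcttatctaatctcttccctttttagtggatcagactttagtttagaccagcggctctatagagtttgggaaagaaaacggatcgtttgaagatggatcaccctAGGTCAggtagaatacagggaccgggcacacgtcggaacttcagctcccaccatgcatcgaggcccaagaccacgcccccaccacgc
Etfb: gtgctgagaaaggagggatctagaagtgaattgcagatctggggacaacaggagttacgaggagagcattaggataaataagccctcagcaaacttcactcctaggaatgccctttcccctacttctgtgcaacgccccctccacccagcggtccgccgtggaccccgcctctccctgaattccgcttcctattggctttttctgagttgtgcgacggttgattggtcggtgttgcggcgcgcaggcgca
Hadhb: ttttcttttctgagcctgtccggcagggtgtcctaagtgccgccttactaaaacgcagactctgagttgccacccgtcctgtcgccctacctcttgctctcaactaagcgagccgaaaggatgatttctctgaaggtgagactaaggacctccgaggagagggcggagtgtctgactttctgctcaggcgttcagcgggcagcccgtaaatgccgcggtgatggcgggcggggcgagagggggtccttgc

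Promoter windows of 300 bases (250 before to 50 after the start) were found for 32 of the 37 genes, in 36 windows, and not for Lpl, Crat, Acaa2, Decr1 and Acat1. AGGTCA on either strand was in 7 of these 32 genes, or 21.9%, and in 18.1% of all 27025 genes of the RefSeq table. The 7 genes were Acacb, Acadm, Acadvl, Cd36, Cpt1a, Echs1 and Ucp3, of which Acadvl and Cd36 were called higher. A pair of AGGTCA half-sites in the same direction with 1 base between them and up to 1 mismatch (DR1) was in none of the 32 genes and in 0.644% of all genes. The ERR element TCAAGGTCA, which contains the half-site, was likewise in none of the 32 and in 0.466% of all genes. A match describes letters in a window and not a bound site.

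The remaining enzymes of the cycle included the hydratase, the dehydrogenase, the thiolases and the isomerases. Hadh, the short-chain hydroxyacyl-CoA dehydrogenase, was at 379 CPM at E14.5 and 910 CPM at P5, a log2 ratio of 1.26. Echs1, the short-chain enoyl-CoA hydratase, had a log2 ratio of 0.68, from 92.0 to 147 CPM, and was not called. Acaa2, the mitochondrial thiolase, was at 478 to 676 CPM in the 5 P5 cells and at 16.2 to 640 CPM with a median of 169 at E14.5, a log2 ratio of 1.67. Acaa1a, a peroxisomal thiolase, was at 0 CPM in L1P5, 9.25 in L2P3, 84.9 in L2P7, 114 in L2P8 and 141 in L2P10, against 0.415 to 37.3 CPM with a median of 12.3 at E14.5. Its log2 ratio was 2.34, with 3 P5 cells above each E14.5 cell and 2 within or below their range. Acaa1a shares nearly all its sequence with Acaa1b, so its counts are uncertain.

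Eci2, Eci1 and Decr1, genes of the list whose enzymes handle unsaturated fatty acids, were each called higher, beside 24.1% of all genes. Eci2, an enoyl-CoA isomerase of mitochondria and peroxisomes, was at 68.8 CPM in L1P5, 392 in L2P3, 339.8 in L2P7, 692 in L2P8 and 439.6 in L2P10. Its E14.5 cells ran from 0 to 267 CPM with a median of 72.0, and the log2 ratio of Eci2 was 2.26. Eci1, the mitochondrial isomerase, was at 600 CPM at P5 and 239 CPM at E14.5, a log2 ratio of 1.33 that dropped to 0.73, below the limit, without L2P8. Decr1, the dienoyl-CoA reductase, was at 1084 and 516 CPM, a log2 ratio of 1.07, a call that was lost without L2P3 or L2P10 (0.99 in both cases).

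**Figure D4:**
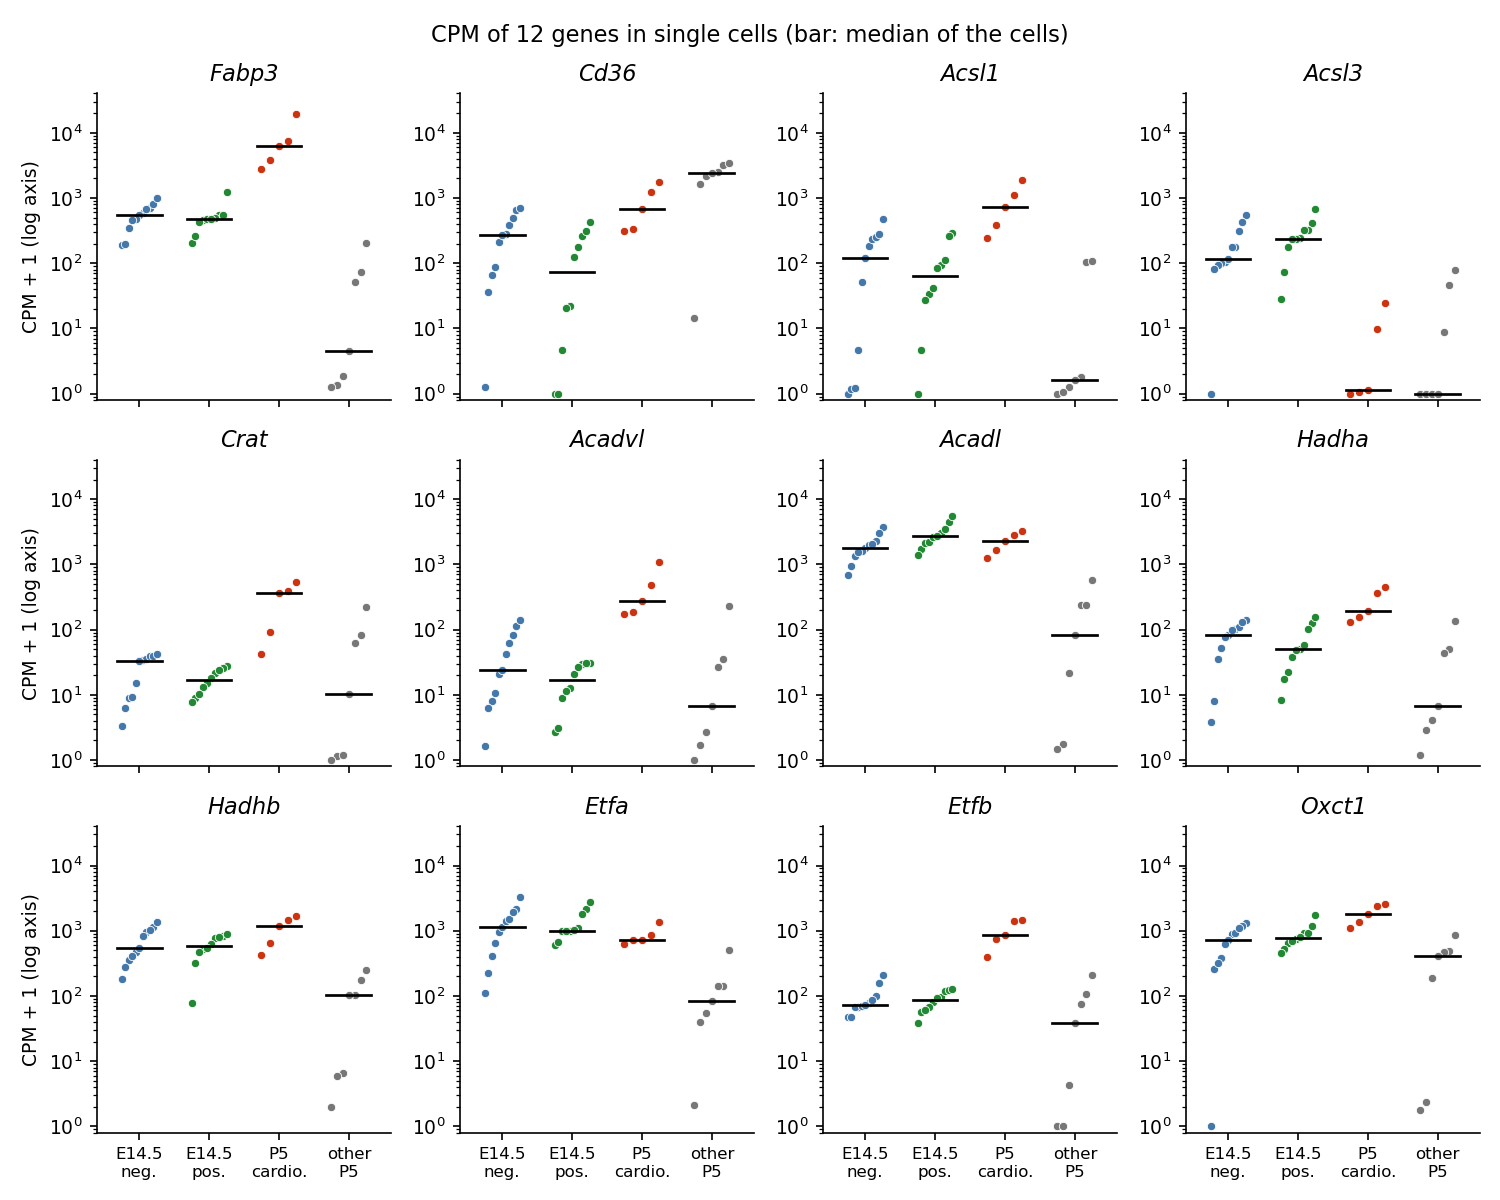
CPM + 1 on a log axis for 12 genes in single cells of 4 sets: E14.5 negative (11), E14.5 positive (10), P5 cardiomyocytes (5) and other P5 cells (7). Points are cells and bars the median of the cells. Fabp3, Crat, Acadvl and Etfb show P5 cardiomyocytes above each E14.5 cell, Acadl and Etfa show overlap, and Cd36 is highest in the other P5 cells.

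Ketone genes of oxidation were present at both ages and Bdh1 was seen at E14.5 only. Oxct1, the transferase that commits acetoacetate to oxidation outside the liver, was at 2565 CPM in L1P5, 2382 in L2P3, 1837 in L2P7, 1381 in L2P8 and 1098 in L2P10. E14.5 cells ran from 0 (N3) to 1751 CPM with a median of 747. Oxct1 had a log2 ratio of 1.04, a call that was lost without L2P3 (0.85), G28 or N10. Of the 5 P5 cells, 3 lay above each E14.5 cell. Acat1, the mitochondrial acetoacetyl-CoA thiolase, was at 2218, 1579, 821, 707 and 825 CPM in the 5 P5 cells and at 94.2 to 1251 CPM with a median of 684 at E14.5. Its log2 ratio of 0.65 missed the limit.

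Bdh1, which interconverts hydroxybutyrate and acetoacetate, had no count in any of the 5 P5 cardiomyocytes or the 7 other P5 cells. At E14.5 it summed to 15.9 CPM, at least 369-fold above the floor of 3 counts over the P5 set, but 14 of the 21 E14.5 cells were at 0 as well. N23 at 146 CPM, N5 at 71.7 and N8 at 29.1 were the only cells above 10 CPM, and each of these was mAG-hGem negative. Without N23 the E14.5 level was 3.898 CPM and the bound fell to at least 90.5-fold, and without L2P8 it was at least 227-fold. With a mean of both sets below 10 CPM, Bdh1 was not called. The floor allows up to 0.0431 CPM of Bdh1 over the P5 cardiomyocytes.

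Pdk4, the kinase that shuts off pyruvate dehydrogenase and so spares glucose, was at 389 CPM in L1P5, 711 in L2P3, 1743 in L2P7, 147 in L2P8 and 292 in L2P10. E14.5 cells ran from 0.119 (G25) to 1104 CPM with a median of 162. Pdk4 had a log2 ratio of 1.24 and dropped to 0.44, below the limit, without L2P7. Ucp2, an uncoupling protein relative of many tissues, was at 16.6 CPM in L2P3 and at or below 1.35 CPM in the other P5 cardiomyocytes, with at most 2.33 CPM in any E14.5 cell. Ucp3, the muscle form, had 16 counts in all, from L2P7 alone, and none in E14.5 cells, at least 27.1-fold above the floor of 3 counts over the E14.5 set. Neither reached the level for a call.

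Of the sums over each step, scaled by total counts, only that of uptake parted the ages. The uptake sum was 4959 to 21862 CPM in P5 cardiomyocytes and 228 to 4653 CPM in E14.5 cells, with no overlap, and without Fabp3 it overlapped at 1092 to 4064 and 21.4 to 4060 CPM. The beta oxidation sum was 10273 to 13569 CPM at P5 and 2600 to 10988 CPM at E14.5. The ketone sum was 1924 to 4783 and 349 to 2674 CPM, and the carnitine sum was 185 to 650 and 8.87 to 248 CPM. The activation sum was 461 to 1964 and 134 to 981 CPM. The sum of fuel switch and uncoupling was 148 to 1744 and 0.119 to 1104 CPM. All step sums but that of uptake overlapped between the ages. Of all counts of the 37 genes, uptake, which includes Fabp3, held 38.7% at P5 and 13.9% at E14.5, and beta oxidation held 43.7% at P5 and 64.9% at E14.5. The summed level of beta oxidation itself was higher at P5, at 11378 CPM against 7266 CPM at E14.5.

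**Figure D5:**
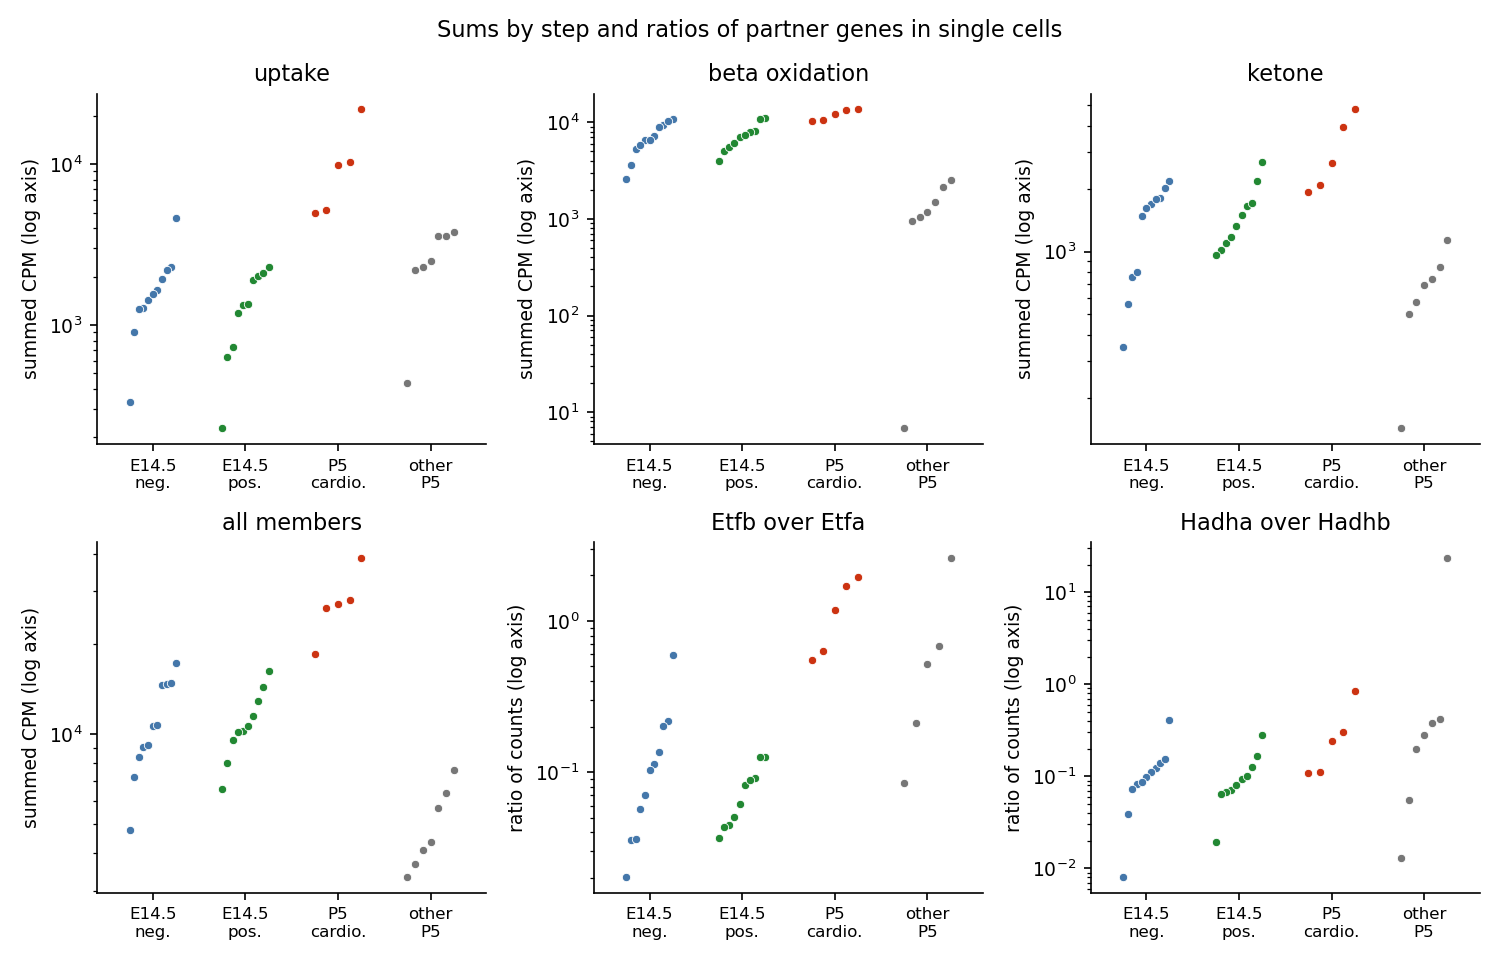
Summed CPM of uptake, beta oxidation, ketone and all 37 genes, and ratios of Etfb to Etfa and of Hadha to Hadhb counts, in single cells of the 4 sets on log axes. Points are cells. L1N3 and L2N4, with no Etfb count, are not drawn in that panel. P5 cardiomyocytes lie above each E14.5 cell for uptake and for all genes.

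P5 cardiomyocytes were all mAG-hGem positive, so they were also set against the 10 positive E14.5 cells alone, which are part of the E14.5 set above. Of 32 genes at the level for a call, 18 were higher and 2 lower, beside 26.2% higher and 38% lower of all genes, and the median log2 ratio was 1.28 beside -0.43. With DESeq2 size factors 24 of the 32 genes were higher, beside 35.5% higher and 26.3% lower of all genes. With the level of the median cell in place of summed counts, 20.8% of all genes were higher and 51.0% lower. That split is not a background for the counts above, which come from summed counts. The log2 ratio was 3.65 for Fabp3, 4.28 for Crat, 4.95 for Acadvl and 3.50 for Etfb. It was -6.53 for Acsl3 and -4.71 for Acsl4. Acadvl came to 3.91 without L2P8. Acsl4 came to -6.14 without L2P7, -4.02 without L2P8 and -3.98 without G29, and Acsl3 to -7.70 without L2P7 and -5.84 without L2P8. Oxct1, at 0.99, no longer passed the limit in this comparison, and Echs1 (1.28) and Mlycd (1.03) did. Mlycd lost the call without L2P3 (0.26) and without L2P10, G1, G6, G27 or G29. Lpl, at 1.34, lost its call without L2P3 (0.96) or G27 (0.99).

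Other P5 cells, mostly with endothelial markers, held lower levels of most of these genes. Against them 25 of 33 genes were higher in P5 cardiomyocytes and 5 lower, beside 24.9% higher and 45.4% lower of all 7260 genes. Without L1N3 and L2N10, the cells with red blood cell markers, and without L2N4 and L2N12, 25 of 32 genes were higher and 5 lower. The shares of all genes above are those of the full set of other P5 cells and are not a background for that count. The median log2 ratio was 2.82 over the 33 genes and -0.74 over all genes. In 13 genes each P5 cardiomyocyte lay above each other P5 cell, against 3.86% of all genes. These were Fabp3, Acsl1, Cpt2, Acadl, Acadm, Hadhb, Hadh, Eci1, Decr1, Etfa, Etfb, Etfdh and Oxct1. None of the 33 lay below in each cell, against 1.56% of all genes. With the level of the median cell the split over all genes was 40.4% higher and 37.95% lower, and the median of the genes of the list was 4.51. The cells were sorted into these sets by cardiomyocyte markers, so the comparison sets cell types side by side, and its P5 cardiomyocytes are those of the comparisons by age.

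Cpt2 showed the widest gap. It had 3 counts in the 7 other P5 cells, all from L2N4, and 45.5 to 326 CPM in P5 cardiomyocytes, a log2 ratio of 10.91 with 0.5 count added to each set and of 11.13 from the counts as they are (exact interval 9.58 to 13.41). Without L2N4 the other 6 cells had no Cpt2 count, and the P5 cardiomyocytes lay at least 2134-fold above the floor of 3 counts over them. Fabp3 was at 0.276 to 207 CPM in other P5 cells with a median of 3.50, and L2N12 held 64.2% of the counts. The log2 ratio of Fabp3 was 7.26, or 8.48 without L2N12. Acadl, Etfa and Etfdh, which did not pass the limit between ages, were called here at 3.603, 2.82 and 3.30, with Etfa at 3.49 without L2N9 and Etfdh at 4.02 without L2N10. Oxct1 reached 2.35 and Acat1 1.78, and Acat1 was the ketone gene with a level of at least 108 CPM in each of the 7 other P5 cells.

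The 5 genes that were lower in P5 cardiomyocytes were Cd36, Acsl3, Acsl4, Acsl5 and Ucp2. Cd36 was at 1640 to 3421 CPM in 6 of the other P5 cells and at 13.2 CPM in L2N12, the cell with fibroblast and mural markers. Its log2 ratio was -1.65, and L1P5 alone of the P5 cardiomyocytes reached the range of those 6 cells. Acsl5 was at 0.0704 to 727 CPM in other P5 cells and highest in L2N4, the cell with counts in the fewest genes. Acsl5 had a log2 ratio of -1.34, a call that was lost without L2P8 (-0.70), L2P12 (-0.88) or L2N4 (-0.91) and reached -2.84 without L2P3. The log2 ratio was -2.91 for Acsl3 and -2.80 for Acsl4. Without L2P7 these were -4.09 and -4.23, without L2P8 -2.23 and -2.10, and Acsl3 was -1.92 without L2N10 and Acsl4 -2.16 without L2N7. Ucp2 was at 37.97 CPM in L2N7, 54.0 in L2N9 and 52.9 in L2N10, with a log2 ratio of -2.46, or -4.74 without L2P3. In summed counts of other P5 cells Acsl5 held 59.2% of the Acsl counts and Acsl1 16.1%.

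The reporter was compared within E14.5. Against mAG-hGem negative cells, 2 of 33 genes were higher (6.06%) and 7 lower (21.2%) in positive cells. Of all 6610 genes, 14.3% were higher and 19.4% lower, so the share of lower genes was near that of all genes. The median log2 ratio was -0.45 over the 33 genes and -0.12 over all genes. With the level of the median cell in place of summed counts, 26.2% of all genes were higher and 11.4% lower. That split is not a background for the counts above, which come from summed counts. Acsl4 summed to 122 CPM over the positive cells against 22.5 CPM over the negative ones, a log2 ratio of 2.44, or 1.71 without G29. Single positive cells ran from 0.703 to 450.4 CPM of Acsl4 and negative cells from 0 to 140 CPM. Acsl5 had a log2 ratio of 1.65, which was 0.95, below the limit, without G28 and 2.39 without N23.

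The 7 genes lower in positive E14.5 cells were Cd36, Acot2, Acadvl, Acads, Acadsb, Bdh1 and Pdk4, and most of these calls hung on single cells. Acadvl had a log2 ratio of -1.37, from 50.6 CPM in negative to 19.6 CPM in positive cells, and kept its call without any 1 cell. Bdh1 was at -7.31, from 28.6 to 0.177 CPM, with N23 holding 77.95% of the negative counts. It came to -5.37 without N23. Without G1 the positive cells held 3 counts, and the ratio of the counts as they are was -10.48 (exact interval -12.75 to -8.93). Cd36 at -1.10 lost its call without G8, G25, G27 (-0.71), N10 (-0.83), N23 or N30. Acot2 at -1.03 lost it without G8, G10, G27 (-0.62), G29, N7, N23, N28 or N30. Acads at -1.04 lost it without G5, G10, G27 (-0.64), G29, N7, N23 or N30, and came to -1.77 without G28. Acadsb at -1.31 lost it without N10 (-0.45), the cell with fibroblast and mural markers, and Pdk4 at -1.12 without G25, G27, N23 or N30 (-0.77).

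Other genes of the pathway came from 6 further lists, read for P5 cardiomyocytes over all E14.5 cells against the same background of 24.1% higher and 40.5% lower. Of 19 other genes of mitochondrial oxidation at the level for a call, 6 were higher and 3 lower (31.6% and 15.8%), with a median log2 ratio of 0.81 beside -0.52 over all genes. Ivd (2.17) and Echdc2 (1.82), which act on leucine and short acyl groups, lost their calls without L2P8, at 0.98 and -2.24, and Hsd17b10 (1.81), a hydroxyacyl-CoA dehydrogenase, kept its call without any 1 cell. Crot, the carnitine octanoyltransferase of peroxisomes, was lower at -2.16, or -1.46 without L2P8 and -2.86 without L2P10. Mut, the methylmalonyl-CoA mutase, was lower at -1.94, and Acad8 at -1.04 lost its call without any of 9 cells, L2P8 (-0.64) among them, and was -2.70 without L2P7.

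Of 12 peroxisomal genes 3 were higher and 3 lower, 25% each, beside 24.1% and 40.5% of all genes, and the median was -0.26. The share of higher genes was near that of all genes. Ech1, a dienoyl-CoA isomerase, was at 78.2 CPM in L1P5, 252 in L2P3, 525 in L2P7, 1896 in L2P8 and 1439 in L2P10, and E14.5 cells reached at most 105 CPM in N30. Ech1 had a log2 ratio of 4.68, or 3.91 without L2P8, and 1 P5 cell, L1P5, lay within the E14.5 range. Acot8 was at 2.93, or 1.66 without L2P8, with counts mainly from L2P8 and L2P10. Ehhadh, the bifunctional enzyme, was at -1.42 and lost its call without L2P8 or N30 (-0.64). Without L2P7 the P5 cells held 1 count of Ehhadh, and the ratio of the counts as they are was -10.83 (exact interval -16.13 to -8.35). Amacr at -1.20 lost its call without L2P8 or N23 (-0.61) and was -1.96 without L2P10, and Abcd3 at -1.03 lost it without any of 8 cells, L2P8 (-0.51) among them.

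Of 14 genes of lipid droplets and triglyceride 9 were higher and 3 lower (64.3% and 21.4%, beside 24.1% and 40.5% of all genes). Plin5, the droplet coat protein of oxidative tissue, was at 0 in L1P5 and L2P3, 24.8 CPM in L2P7, 31.6 in L2P8 and 123 in L2P10, and had no count in any E14.5 cell. Its summed 38.8 CPM was at least 4573-fold higher than the floor of 3 counts over the E14.5 set, or at least 2390.3-fold without L2P10. Dgat2, which makes triglyceride, was at 4.50 and Mgll, which breaks down monoglyceride, at 3.40, or 1.36 without L2P8 and 4.08 without N5. Hilpda, an inhibitor of triglyceride lipase, was at -3.24, or -2.19 without G27. All its P5 counts lay in L2P3, and without that cell Hilpda was at least 329-fold lower against the floor of 3 counts over the P5 set. Plin3, another droplet coat protein, was at -1.81, or -3.97 without L2P8. G0s2, also a lipase inhibitor, was at -1.09, or -4.07 without L2P8, and lost its call without any of 6 cells, L2P3 (-0.73) among them.

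Of 4 further uptake genes 3 were higher and none lower, beside the same shares of all genes. Got2, the mitochondrial aspartate aminotransferase also described as a fatty acid binding protein of the plasma membrane, was at 187 CPM in L1P5, 139.99 in L2P3, 124 in L2P7, 633 in L2P8 and 237 in L2P10, above the E14.5 maximum of 107 CPM. Got2 had a log2 ratio of 3.02, or 1.97 without L2P8. Angptl4, an inhibitor of lipoprotein lipase, was at 2.24 and Vldlr, a lipoprotein receptor, at 1.96, and without L2P8 these were 2.89 and 2.66. For Fabp4, Fabp5 and Gpihbp1, genes of endothelial lipid handling, the log2 ratios against other P5 cells were -10.54, -11.01 and -11.28. Each P5 cardiomyocyte lay below each other P5 cell for all 3, against 1.56% of all genes. For Gpihbp1 this rested on few counts, at 0.237 CPM in L2N12 and 0.112 CPM in L2P8. L2N12 was also lowest of the other P5 cells for Fabp4, at 19.8 CPM, with L2P7 at 12.8 CPM.

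Of 7 genes of fatty acid synthesis 1 was higher and 3 lower (14.3% and 42.9%, beside 24.1% and 40.5% of all genes), and the median of -0.51 was near the -0.52 of all genes. Elovl6, the elongase of palmitate, had no count at P5 and 26.6 CPM at E14.5, at least 617-fold lower against the floor of 3 counts over the P5 set, or at least 380-fold lower without L2P8. Acly, which makes cytosolic acetyl-CoA, was at -4.06, with -5.34 without L2P3 and -3.36 without L2P8. Scd2, a desaturase, was at -1.99, and Mcat, the mitochondrial malonyltransferase, was higher at 2.46, or 1.74 without L2P8.

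Of 6 other ketone genes 4 were higher and 2 lower (66.7% and 33.3%, beside 24.1% and 40.5% of all genes). Slc16a7, a monocarboxylate carrier, was at 3.49, or 2.41 without L2P7 and 4.56 without N8. Acat2, the cytosolic thiolase, was at 2.23 and lost its call without L2P8 (-4.67). Hmgcs1, the cytosolic synthase of sterol synthesis, was at -2.71 and Slc16a1, the main monocarboxylate carrier, at -1.99, and both kept their calls without any 1 cell.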

How the data were processed

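Reads of 33 single cells were counted per gene by the authors, and the deposited values are raw read counts (whole numbers, 14862 gene rows). The submitters' processing notes name CASAVA 1.8.2, STAR 2.4.0j, HTSeq 0.6.1p1 and build mm10 without role or order, and the gene annotation is not given in the sources used here. Per the labels, messenger RNA was amplified by the antisense RNA method, so reads are not independent molecules and exact 95% intervals cover counting error only. Totals were 2545036 to 38465225 counts per cell.

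CPM used each cell's total count. Each set's counts were added up, 0.5 count was added to each side, and log2 ratios were called at 2-fold among genes with a mean of at least 10 CPM over both sets. With 1 cell per sample and no animal named, each set was 1 sample, and no test or p-value was computed. The floor was 3 counts over a set. Among pairs of cells the highest Pearson r on log2(CPM + 1) was 0.867 (G1 with G2), and no cells were merged. The module and the lists were chosen with earlier results of these data known, and so was the set of 5 P5 cardiomyocytes. Named genes were up to 4 per step with the largest log2 ratio, the isoform pairs, and up to 3 highest and 3 lowest called genes per further list, of which some are not reported here; the remaining genes of the module were given to account for each one. Promoters came from RefSeq on GRCm38.p6. Alternatives were other size factors (edgeR 4.0.16, DESeq2 1.42.0, in R 4.3.3), weights, filters and folds, and leaving out cells. Scripts (Python 3.11.15, numpy 2.4.6, pandas 2.3.3, scipy 1.17.1, matplotlib 3.10.9) were tested on simulated data. The simulated counts held counting error only and no differences between cells of a set. They therefore check the arithmetic and not how well calls hold across cells.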

Additional observations from a re-analysis of the deposited data

Results flagged for a closer look

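Genes and step sums were searched on the log2(CPM + 1) scale for 1 extreme cell within a set. Dixon's 95% limit for the set was passed in 17 of 114 values. The sets were P5 cardiomyocytes, other P5 cells and positive E14.5 cells, and negative E14.5 cells were not searched. About 1 in 20, or 5.70, would pass by chance if values were normally distributed. Values of single cells with many zeros need not be, so 5.70 is not a fair expectation here. The values share cells, so they are not independent.

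Among positive E14.5 cells G5 was lowest for Lpl (0.104 CPM, next 91.5 in G27), Hadhb (77.2 CPM, next 319 in G8), Hadh (0 CPM, next 117), Eci2 (0 CPM, next 19.1) and Decr1 (0 CPM, next 189). G27 was lowest for Acot2 at 0.0260 CPM, with the next cell at 20.6 CPM. G25 was lowest for Pdk4 at 0.119 CPM and for the fuel switch and uncoupling sum, also 0.119 CPM, with the next cell at 70.5 CPM of Pdk4.

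Among P5 cardiomyocytes L1P5, the shallowest cell, was highest for Cpt2 at 326 CPM, with the next cell at 66.1 CPM.

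Among other P5 cells L2N12 was lowest for Cd36 (13.2 CPM, next 1640 in L2N7) and for the uptake sum (438 CPM, next 2192). L2N4 was lowest for Lpl (1.75 CPM), Acaa1a (0 CPM) and the beta oxidation sum (6.80 CPM, next 941), and highest for Cpt2 (0.583 CPM, the others at 0). L2N4 was also the cell with counts in the fewest genes, 2994. L2N9 was highest for Acot2 at 50.8 CPM, and L2N10 was lowest for the ketone sum at 143 CPM.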

How the results depend on the processing

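Counts of called genes in this section stand without the shares of all genes at the same settings. They show how the calls shift and have no background here. For P5 cardiomyocytes over E14.5 cells, the median of the module was 0.85 to 1.51 over the alternatives and no called gene of the module changed sign. The count of higher genes was 8 at 4-fold and 14 to 18 when 1 cell was left out. The count of lower genes was 1 with a mean of at least 50 CPM, 4 against negative E14.5 cells only, and 2 to 4 when 1 cell was left out. Against positive E14.5 cells, 10 genes were higher at 4-fold and 4 lower with the median cell. Against other P5 cells, the median was 4.51 with the median cell, and the lower count was 3 with the median cell, 2 with at least 50 CPM and 3 at 4-fold. For positive over negative E14.5 cells, the higher count was 1 with at least 50 CPM, 1 at 4-fold and 1 to 2 when 1 cell was left out, and the lower count was 3, 1 and 2 (without N23) to 10 (without N24). The stricter filter and fold leave fewer genes by construction, and the cause of the other changes was not tested. The median of all genes, -0.52 with total counts, was -0.25 with TMM and 0.03 with DESeq2 size factors. With either kind of size factor the ranges of Crat in P5 cardiomyocytes and E14.5 cells overlapped. Added after seeing the data, leaving out N10 with L2P10, or L1P5 with N10, left 15 genes higher in each case, and leaving out L2N4, the cell with all Cpt2 counts of its set, L1N3 and L2N10, with red blood cell markers, and L2N12, with fibroblast and mural markers, left 25. No paired analysis was possible because title numbers only name cells. Values of genes under 10 CPM rest on few counts, and L1P5, with the fewest counts in all, had the least precise values.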
